A study of Mus musculus with 2 samples.

Results

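Circadian clock genes were examined in F2 cells, a mouse vascular endothelial line, transfected with a light-gated Ca2+ switch. The comparison is 4 h of intermittent blue light against none. The set holds 10 genes, Per1, Per2, Per3, Cry1, Cry2, Clock, Nr1d1, Nr1d2, Bhlhe40 and Bhlhe41, chosen by gene symbol. They are repressors of the clock and the activator gene Clock. Each had 1 probe set, so they make up 10 of the 22206 gene probe sets on the array. Both cultures came from a UV-induced tumor line of mixed BALB/c and C57BL/6 background and were transfected with a plasmid in which a CAG promoter drives hBACCS2 and mCherry. In the blue light culture, light of 470 nm at about 0.4 mW/mm2 was given for 2 min in each cycle with an 18 min interval, and the no blue light culture received none. RNA of each condition was hybridized to 1 Clariom S array, so no difference below has a replicate and no p-value is given. No array comes from irradiated cells without hBACCS2, the Ca2+ switch. Effects of the light itself and of the switch therefore cannot be told apart. The study's methods state that transfection reached a fraction of the F2 cells, and each signal averages cells with and without the plasmid. The series design text describes the control as lacking hBACCS2, whereas the sample labels and the study describe both cultures as transfected. A treatment note shared by both samples also does not set the control apart. The labels and the study are followed here. Should the control have been untransfected or irradiated, every ratio would compare something else.

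The mammalian clock is a feedback loop of transcription. CLOCK and its partner BMAL1, the product of Arntl, activate genes through E-boxes in their promoters, among them the Per, Cry, Nr1d and Bhlhe40/41 genes. PER and CRY proteins then repress CLOCK and BMAL1, the REV-ERB receptors encoded by Nr1d1 and Nr1d2 repress Arntl through ROR elements, and the DEC1 and DEC2 proteins encoded by Bhlhe40 and Bhlhe41 repress from E-boxes. In the brain's central clock, light leads to Ca2+ entry and to CREB acting on cAMP response elements of Per1. Cultured cells carry this loop too, but drift apart in phase unless they are synchronized. Neither a synchronizing step nor the clock time of harvest is stated in the study, and 1 time point cannot show a phase.

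Bhlhe41 was the only one of the 10 genes past the cutoff that the study used, which was a ratio above 2 or under 0.5 where signals exceeded 24, read here as both arrays. It was higher with blue light. Of the 10 genes, 9 were over the signal cutoff, with 1 higher, 0 lower and 8 within the fold cutoff. Over all 11695 gene probe sets past the signal cutoff, 0.958% were higher and 1.37% lower. These were 112 and 160 probe sets. The study reports fewer genes each way, so its lists were not exactly reproduced. Its pathway analysis lists exercise-induced circadian regulation as upregulated on 2 changed genes, and its text does not name the genes behind that entry. The median log2 ratio of the 9 genes was 0.00, beside -0.01 over all 11695 probe sets. On the log2 scale 6 of the 9 lay within 0.2 of 0, beside 4573 of the 11695. The 6 include Per1 and Per2, whose signals were near those of the negative control probes. Of the 9 genes, 4 were above 0, 4 below and 1, Per1, at 0. The differences beyond 0.2 among the 9 genes were in Bhlhe41, Bhlhe40 and Nr1d1, and the DEC and REV-ERB genes lay on opposite sides of 0. Bhlhe41 and Bhlhe40 were above 0, and Nr1d1 and Nr1d2 below 0, under the deposited values and under median, quantile and loess scaling. The scalings moved these log2 ratios little, that of Nr1d2 to between -0.23 and -0.15, so the unchanged signs add little. In RNA from a whole culture, a change in the share of cells that use a gene and a change in RNA per cell cannot be told apart.

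**Figure D1:**
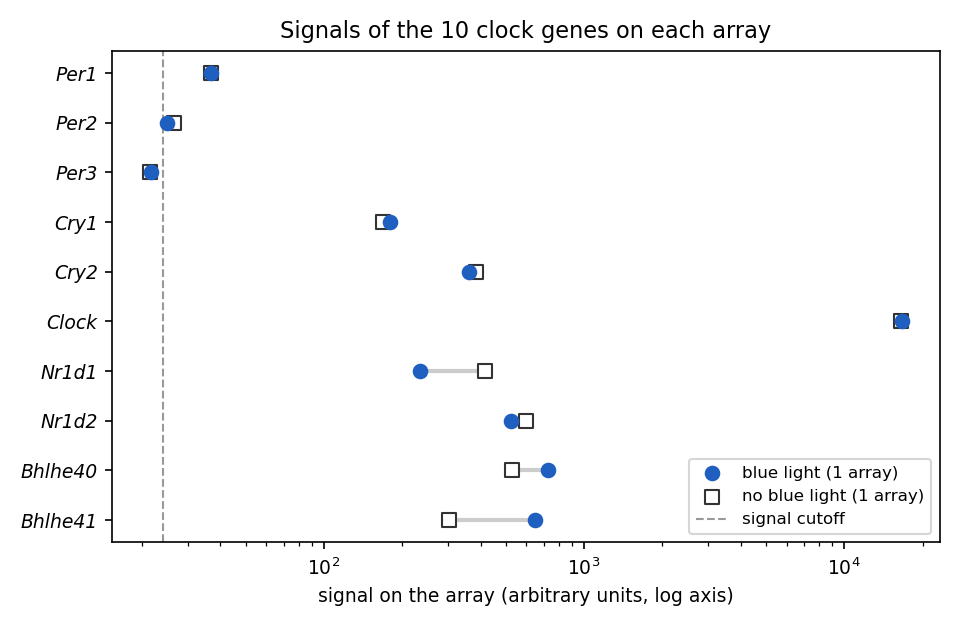
Signal of each of the 10 clock genes on the array with blue light (filled circles) and on the array without (open squares), on a log axis in arbitrary units, with the signal cutoff of 24 dashed. The widest gaps are in Bhlhe41 and Nr1d1 and run in opposite directions. Signals of different genes come from different probes and are not compared with each other.

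The DEC factors are helix-loop-helix repressors that bind E-boxes and are known to respond to many stimuli outside the clock, hypoxia and cytokines among them. Bhlhe41, encoding DEC2, had a signal of 646.7 with blue light and 302.6 without, which gave a ratio of 2.14, or 1.10 on the log2 scale. Among all probe sets over the signal cutoff, 99.4% had a lower ratio. The 500 probe sets nearest to Bhlhe41 in mean signal had log2 ratios between -0.72 and 0.83 in their central 95%, and 1.0% of them had a larger absolute log2 ratio. That range describes these 2 arrays and may itself hold true differences. Bhlhe40, encoding the paralog DEC1, had a signal of 728.3 with blue light and 529.6 without, a ratio of 1.38. Its log2 ratio of 0.46 was within the fold cutoff and inside the central 95% of its neighbors, from -0.84 to 0.70, of which 26.6% had a larger absolute value. The log2 ratios of Bhlhe41 and Bhlhe40 differed by 0.64. Both paralogs were on the same side of 0, and of them only Bhlhe41 lay outside the central 95% of its neighbors.

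The sequence before the Bhlhe41 start is shown because this gene carries the one called difference. RefSeq promoters of GRCm38.p6 were matched for 8 of the 10 genes, and Bhlhe40 and Per2 are the others. The 250 bases before each start were searched on both strands for the E-box CACGTG, the cAMP response element TGACGTCA, the shorter site TGACG contained in it, the ROR element core AGGTCA, the D-box TTATGTAA and the heat shock element GAANNTTC. Bhlhe41 had 1 E-box, beginning 153 bases before the start and printed in capitals, in the window chr6:145865421-145865670 on the minus strand.
Bhlhe41: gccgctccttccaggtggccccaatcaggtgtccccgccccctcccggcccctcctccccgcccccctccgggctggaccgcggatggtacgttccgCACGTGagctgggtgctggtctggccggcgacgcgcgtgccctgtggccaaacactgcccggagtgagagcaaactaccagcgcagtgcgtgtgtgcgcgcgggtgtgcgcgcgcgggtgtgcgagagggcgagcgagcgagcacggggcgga
No other motif of the search was in this window. Of all 32851 promoters in the table, 6.02% held the E-box in the same length. A match describes letters and not binding.

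REV-ERB alpha and beta are nuclear receptors that bind heme and repress transcription. Nr1d1, encoding REV-ERB alpha, had a signal of 233.2 with blue light and 415.2 without. The ratio was 0.562, within the fold cutoff of 0.5, and the log2 ratio -0.83. Of the 11695 probe sets, 2.91% had a lower ratio. Among its 500 neighbors in signal 4.8% had a larger absolute log2 ratio, and their central 95% ran from -0.85 to 0.78, so that Nr1d1 lay just inside its lower end. Nr1d2, encoding REV-ERB beta, had a signal of 523.0 with blue light and 596.7 without, which gave a ratio of 0.877, or -0.19 on the log2 scale. This is well inside the range of its neighbors, from -0.88 to 0.80. The log2 ratio of Nr1d1 was 0.64 below that of Nr1d2. At a fold cutoff of 1.5, Nr1d1 was the 1 clock gene counted as lower and Bhlhe41 the 1 counted as higher, beside 8.47% lower and 7.55% higher among the 11695 probe sets.

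The promoter of Nr1d1 is shown as that of the gene with the next widest difference, in the opposite direction. The window lies at chr11:98775378-98775627 on the minus strand and had none of the motifs searched, and no letters are in capitals.
Nr1d1: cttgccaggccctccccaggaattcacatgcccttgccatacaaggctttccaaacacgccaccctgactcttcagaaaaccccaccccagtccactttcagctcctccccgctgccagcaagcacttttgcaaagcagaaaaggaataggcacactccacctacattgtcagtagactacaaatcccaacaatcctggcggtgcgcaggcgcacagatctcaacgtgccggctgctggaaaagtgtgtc
The window of Nr1d2 had 1 ROR element core, 77 bases before its start, a motif in 14.0% of all promoters. No match says only that these letters are not in these 250 bases.

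The Per genes encode the period proteins, which form the repressor complex with the cryptochromes. Per1 had a signal of 37.0 with blue light and 37.0 without, equal to the last deposited digit, so its log2 ratio was 0.00. Exact equality was found in 118 gene probe sets, of which 48 were over the signal cutoff. Per2 had a signal of 25.0 with blue light and 26.6 without, a log2 ratio of -0.09. Per3 had a signal of 21.6 with blue light and 21.4 without and was under the signal cutoff on both arrays. All Per signals were near the median of the 5222 negative control probes, which was 26.5 with blue light and 26.2 without. Per1 was at 1.40 times that median with blue light and 1.41 times without, Per2 at 0.942 times with blue light and 1.02 times without, and Per3 at 0.815 times with blue light and 0.819 times without. Near that level a difference in Per transcripts may not be detectable, and the values do not show that Per1 was unchanged.

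The starts of Per1 are shown because a Ca2+ signal is known to reach this gene through CREB. The table holds 2 starts, and capitals mark the sites found. The window of the first, at chr11:69098699-69098948 on the plus strand, had in the order of the sequence 1 TGACG site, 1 E-box and 1 ROR element core on the other strand.
Per1, first start: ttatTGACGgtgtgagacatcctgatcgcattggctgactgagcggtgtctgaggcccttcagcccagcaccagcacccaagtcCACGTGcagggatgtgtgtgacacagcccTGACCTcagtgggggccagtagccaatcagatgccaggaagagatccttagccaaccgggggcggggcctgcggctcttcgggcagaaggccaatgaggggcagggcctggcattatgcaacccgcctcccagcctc
The window of the second start, at chr11:69099902-69100151 on the plus strand, had 1 TGACG site, 132 bases before the start.
Per1, second start: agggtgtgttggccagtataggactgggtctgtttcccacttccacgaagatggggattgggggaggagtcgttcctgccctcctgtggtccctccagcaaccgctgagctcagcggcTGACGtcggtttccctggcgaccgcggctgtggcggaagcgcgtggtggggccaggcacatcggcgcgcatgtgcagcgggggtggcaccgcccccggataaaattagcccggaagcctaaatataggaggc
Counts of genes take a match at any start, and the 8 genes have 11 promoters, whereas the percentages are per promoter. The 2 are therefore not like measures. The TGACG site was in the windows of 3 of the 8 genes, Per1, Cry1 and Cry2, and in 17.8% of all promoters. The whole cAMP response element was in 0 of the 8 and in 1.55% of all promoters, and the heat shock element was in 0 of the 8 and in 6.69%. E-boxes were found in 3 of the 8, Per1, Cry1 and Bhlhe41, and the ROR element core in 3 of the 8, Per1, Clock and Nr1d2. Per3 had 2 D-boxes, a motif in 0.819% of all promoters. Of the 3 genes with an E-box, Bhlhe41 had a log2 ratio of 1.10, Cry1 of 0.10 and Per1, near the negative controls, of 0.00. Whether an E-box goes with a difference was not tested.

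The cryptochromes are repressors of CLOCK and BMAL1 related to light-sensing flavoproteins, and in mammals they act without sensing light. Cry1 had a signal of 179.8 with blue light and 168.2 without, a ratio of 1.07. Cry2 had a signal of 361.0 with blue light and 385.4 without, a ratio of 0.937. Their log2 ratios of 0.10 and -0.09 were small, and 83.0% of the neighbors of Cry1 and 79.2% of those of Cry2 in signal had a larger absolute value. Clock, which encodes the activator itself, had a signal of 16685 with blue light and 16484 without, a ratio of 1.01. Its log2 ratio of 0.02 was exceeded in size by 94.4% of its neighbors. Unlike the Per genes, these 3 genes had signals of at least 6.42 times the negative control median on both arrays. The Per3, Per1 and Clock values were close enough to 0 that their sign depended on scaling. Per3 was at -0.05 and Per1 at -0.06 under the lowest alternative, and Clock ran from -0.03 to 0.06.

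**Figure D2:**
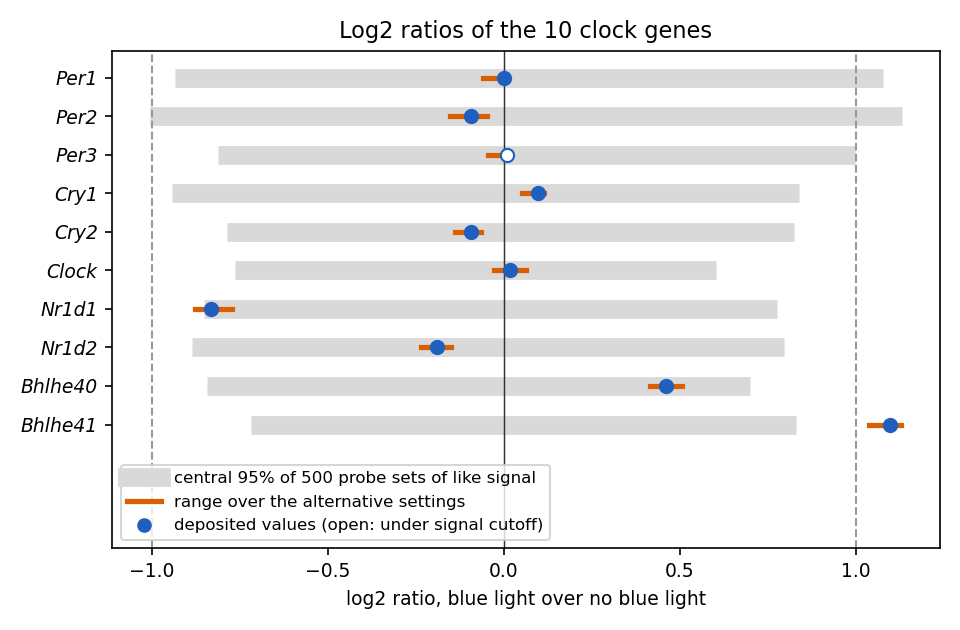
Log2 ratio of each clock gene, blue light over no blue light (points, open for Per3 under the signal cutoff), with the central 95% of log2 ratios of the 500 probe sets nearest in signal (gray bars), the range over the alternative settings (orange) and the 2-fold cutoffs dashed. Bhlhe41 at 1.10 is the one point outside its gray bar, and Nr1d1 at -0.83 lies at the end of its bar.

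**Figure D3:**
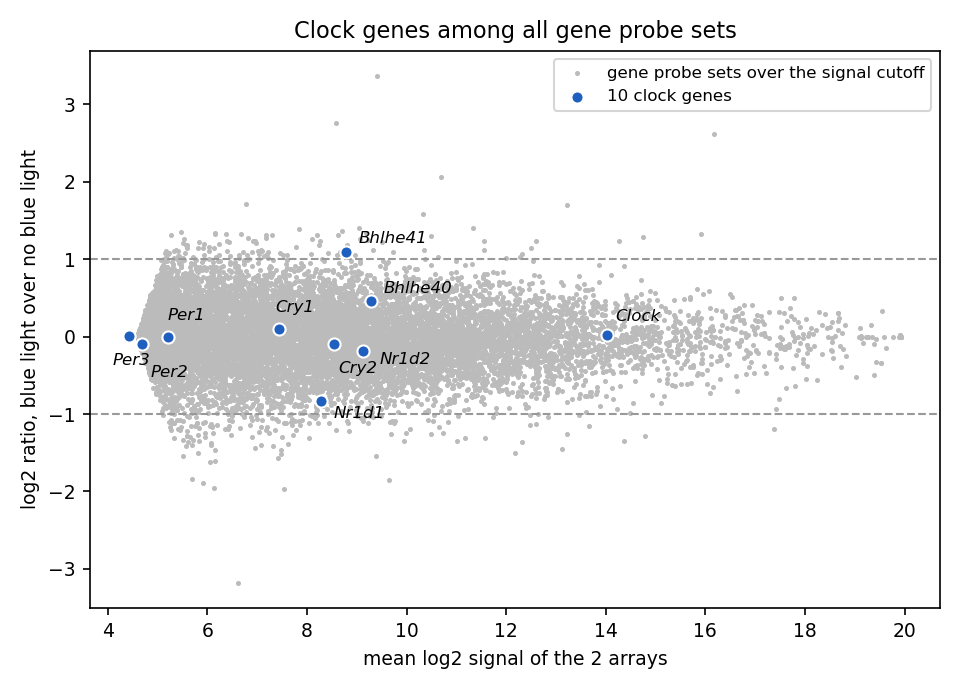
Log2 ratio, blue light over no blue light, against mean log2 signal of the 2 arrays for the 11695 gene probe sets over the signal cutoff (gray) with the 10 clock genes (blue, Per3 under the cutoff). The Per genes lie at the dim end and Clock, at a mean log2 signal of 14.0, toward the bright end, while Bhlhe41 sits above and Nr1d1 near the dashed 2-fold lines.

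Other genes of the clock were taken from a list of 45, of which 41 had a named probe set, with 44 probe sets in all. Over the signal cutoff were 35 probe sets, of which 0 were higher, 2 lower and 33 within the fold cutoff, beside the 0.958% higher and 1.37% lower over all probe sets. Their median log2 ratio was -0.21, with 13 above 0 and 22 below. Over all 11695 probe sets, 5669 were above 0 and 5978 below, beside the median of -0.01 given above.

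Among the activators and ROR receptors, 4 probe sets were over the signal cutoff and all were within the fold cutoff. Arntl, which encodes BMAL1, had a signal of 287.2 with blue light and 270.3 without, a ratio of 1.06, so that Clock and Arntl alike had close signals on the 2 arrays. Arntl2, a paralog of Arntl, had a signal of 46.1 with blue light and 34.6 without, a log2 ratio of 0.42. Npas2, a paralog of Clock, had a signal of 33.7 with blue light and 39.3 without, a log2 ratio of -0.22. Rora, which encodes a receptor that activates from the elements where REV-ERBs repress, had 3 probe sets that disagreed, with log2 ratios of 0.48 over the signal cutoff and -0.10 and -0.18 under it. The signals of Arntl2, Npas2 and this Rora probe set were, like those of the Per genes, near the negative controls, between 1.01 and 1.74 times their median over both arrays. With 24 added to both signals, the log2 ratios were 0.26 for Arntl2, -0.13 for Npas2 and 0.27 for Rora.

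Dbp, which encodes an activator of D-boxes and is a classical output of CLOCK and BMAL1, had a signal of 257.1 with blue light and 506.7 without. Its ratio of 0.507 stopped just short of the fold cutoff, and 1.53% of the 11695 probe sets had a lower one. Its log2 ratio of -0.98 was below the central 95% of its neighbors, from -0.79 to 0.74. The 250 bases before the Dbp start held none of the motifs searched. Nfil3, which encodes the repressor at D-boxes, had a log2 ratio of -0.27 at signals of 1.47 times the negative control median with blue light and 1.79 times without, and of -0.17 with 24 added to both signals. The other D-box factors of the list were under the signal cutoff.

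Of 12 probe sets for kinases, ubiquitin ligases and partners of PER and CRY, 8 had a log2 ratio below 0 and 4 above, all within the fold cutoff. Csnk2a1, a catalytic subunit of casein kinase 2, had a signal of 1029 with blue light and 1807 without, a log2 ratio of -0.81. Csnk1d and Csnk1e, which encode the kinases that mark PER proteins for degradation, had log2 ratios of -0.55 and -0.50. Of the other kinase genes in the group, Csnk1a1 was at -0.48 and Gsk3b, on the other side of 0, at 0.27. Btrc, a subunit of the ligase that acts on phosphorylated PER, had a signal of 316.3 with blue light and 173.2 without, a log2 ratio of 0.87. Sfpq, an RNA-binding partner of the PER complex, had a signal of 4173 with blue light and 2391 without, a log2 ratio of 0.80. Csnk2a1, Btrc and Sfpq each lay outside the central 95% of their neighbors, at -0.78 to 0.71 for Csnk2a1, -0.98 to 0.79 for Btrc and -0.71 to 0.70 for Sfpq.

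The outputs and inputs held the 2 called genes of the list. Klf10, a zinc finger repressor driven by the clock, had a signal of 588.2 with blue light and 1271 without, a ratio of 0.463, or -1.11 on the log2 scale. Nr3c1, the glucocorticoid receptor through which hormone reaches Per1, had a signal of 85.6 with blue light and 200.4 without, a ratio of 0.427, or -1.23 on the log2 scale. Cdkn1a and Id2, a cell cycle inhibitor and a helix-loop-helix inhibitor, had log2 ratios of 0.71 and -0.36. Crtc1, a coactivator of CREB that is released by Ca2+ signaling, had a signal of 66.0 with blue light and 117.5 without, a log2 ratio of -0.83. Sik1, the kinase that CREB induces and that holds CRTC1 back, had a signal of 416.4 with blue light and 623.3 without, a log2 ratio of -0.58. Of the 10 input probe sets, 3 were above 0 and 7 below.

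**Figure D4:**
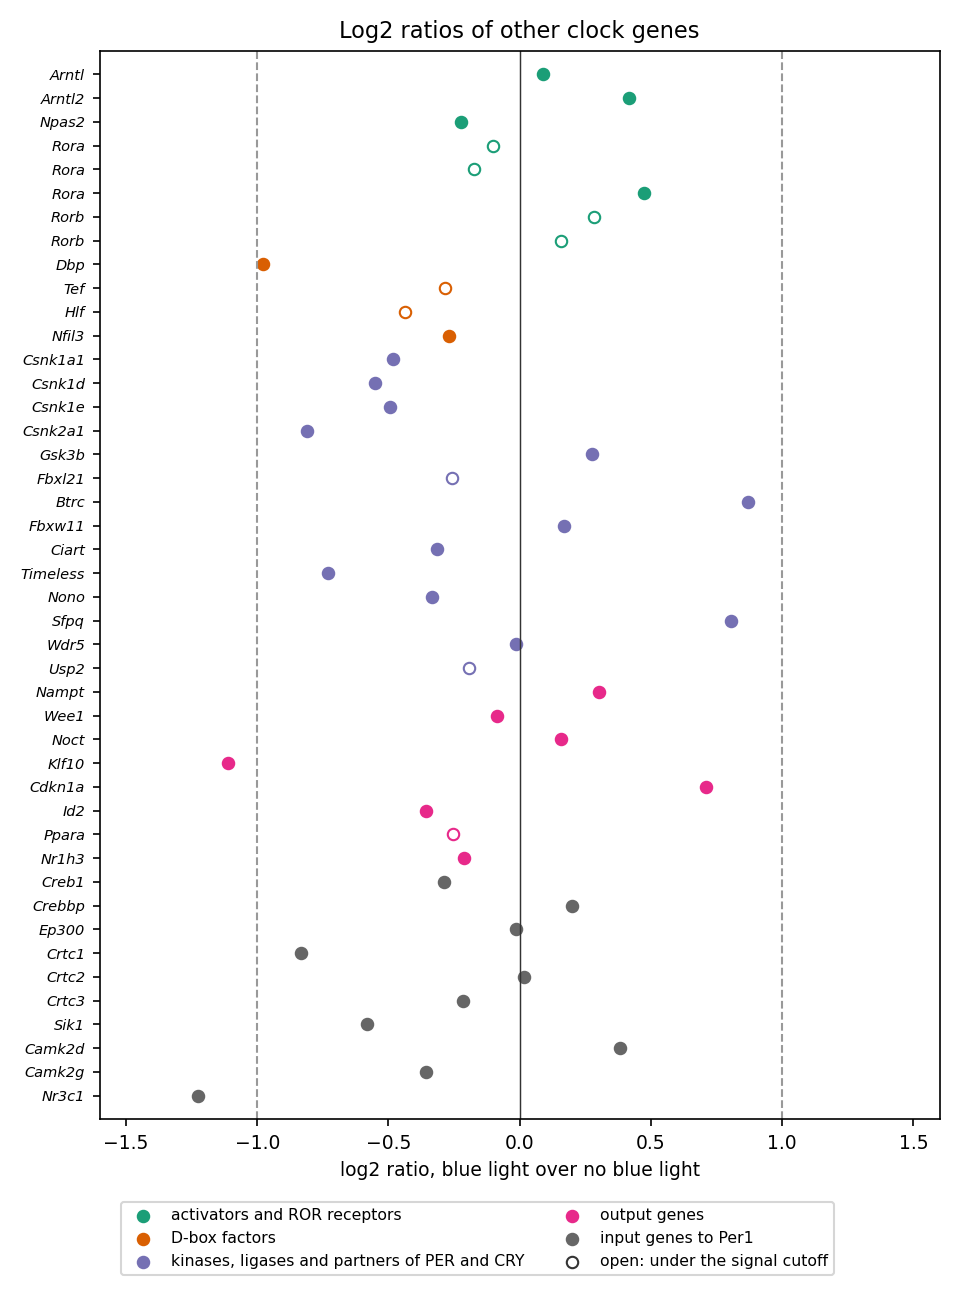
Log2 ratio, blue light over no blue light, of 44 probe sets of other clock genes, colored by role, with open points under the signal cutoff and the 2-fold cutoffs dashed. Klf10 at -1.11 and Nr3c1 at -1.23 are past the lower line, Dbp at -0.98 is just inside it, and no point is past the upper line.

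The label of the cells was checked against markers. Of 10 endothelial genes with a named probe set all 10 were over the signal cutoff, with a summed signal of 401482 with blue light and 483644 without. Their log2 ratios ran from -0.68 to 0.57 with a median of -0.22, and 4 were above 0 and 6 below. Kdr, a receptor for VEGF, was at -0.65, outside the central 95% of its neighbors from -0.64 to 0.51, and Nos3, the endothelial nitric oxide synthase, at -0.68. Both were past a fold of 1.5 and within the 2-fold cutoff. Vwf, at 0.57, was near the signal cutoff, with signals of 41.3 with blue light and 27.8 without. Whether these marker differences had a part in the clock gene values was not tested. Of 12 markers of smooth muscle, fibroblasts, leukocytes and epithelium, 1 was over the signal cutoff on both arrays, the pericyte gene Pdgfrb at 25.8 with blue light and 37.3 without. The 8 spiked control transcripts had log2 ratios from -0.22 to 0.11. With 1 array per condition, the precision of each value is limited by the number of arrays.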

How the data were processed

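F2 cells carrying hBACCS2, irradiated or not, gave 1 Clariom S array per condition. The authors deposited log2 values, normalized with version 3.2 of a service provider's Microarray Data Analysis Tool. How that software normalizes or corrects background is not stated in the study. The 6640 control rows entered no count. Genes were named through the platform annotation, which gives a symbol to 19572 of 22206 gene probe sets and none to 2634, and promoters through RefSeq (GRCm38.p6) by gene ID. A log2 ratio is the deposited log2 value with blue light minus that without it. Calls asked for a signal over 24 on both arrays with a ratio above 2 or under 0.5. No test was possible. Each ratio was placed among the 500 probe sets nearest in mean signal. Alternatives were median, quantile and loess scaling (span 0.3), a fold cutoff of 1.5, other or no signal cutoffs, the mean per gene symbol and an offset of 24 on both signals. Named genes were the 10 clock genes, the other clock genes past the cutoffs and up to 3 per role with the largest absolute log2 ratio. Arntl, Csnk1a1, Csnk1d, Csnk1e, Gsk3b, Crtc2 and Crtc3, the 2 dimmer Rora probe sets and markers singled out were named after their values were seen. The members and lists were chosen with earlier results of these data known. Calls and scalings were tested on simulated data with log2 shifts of 1.5 and 2 in size. These are larger than the differences of the clock genes called here, so the simulation does not bear on calls near the cutoff. Software was Python 3.11.15, statsmodels 0.14.6, pandas 2.3.3, numpy 2.4.6 and matplotlib 3.10.9.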

Additional observations from a re-analysis of the deposited data

How the results depend on the processing

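Bhlhe41 was called higher under all 9 alternatives, with a log2 ratio from 1.04 to 1.13, and Klf10 was called lower under all 9, from -1.16 to -1.07. The scalings and the offset of 24 could have changed these calls. The other alternatives could not, given signals well over 100 on both arrays and 1 probe set per gene. Nr3c1 was called lower under 8, and was under the cutoff where a signal over 100 was asked of both arrays. Its log2 ratio ran from -1.27 to -1.03, and the value of -1.03, just past the fold cutoff, came with 24 added to both signals. At a fold cutoff of 1.5, 1 of the 10 clock genes, Bhlhe41, was higher and 1, Nr1d1, was lower. Of the 35 other clock probe sets over the signal cutoff, 3 were higher and 6 lower. Over all 11695 probe sets, 7.55% were higher and 8.47% lower at that fold. With a signal over 100 on both arrays, 1 of 27 other clock probe sets was lower, beside 76 of 7699 over all. The median log2 ratio of the 27 was -0.085. Dbp was called lower under median scaling, at -1.02. The median log2 ratio of the clock genes over the signal cutoff was between -0.06 and 0.02, over 9 genes except 7 with a signal over 100 and 10 with no signal cutoff. Over all probe sets, against 112 higher and 160 lower, there were 246 and 254 with a signal over 24 on either array, 407 and 388 with no signal cutoff, 51 and 76 with a signal over 100, 883 and 990 at a fold of 1.5, and 51 and 74 with 24 added. No paired analysis was possible because each condition has 1 array. Per1, Per2, Per3, Arntl2, Npas2, Nfil3 and Rora are limited by signals near the negative controls.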
